A study of Arabidopsis thaliana with 8 samples.

Results

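The 46 genes described here are nuclear genes of Arabidopsis thaliana that encode proteins of the photosynthetic apparatus. They were chosen by gene identifier and make up 46 of the 33977 genes in the deposited expression table. By role they are 10 antenna genes of photosystem II (LHCB), 4 antenna genes of photosystem I (LHCA), 12 genes of photosystem I subunits (PSA), 9 genes of photosystem II subunits (PSB), 6 genes of electron transport, and 5 genes of Rubisco, its small subunit and its activase. RNA was sequenced from floral buds of stages 8 to 10, pooled within each sample. The amiRNACWIN24 buds came from 1 transgenic line, 4-3, with the transgene pSTK::amiRNACWIN24, and the others came from wild type (WT), with 4 biological replicates of each genotype. The transgene pairs the STK promoter, from the ovule identity gene SEEDSTICK, with an artificial microRNA whose name points to CWINV2 and CWINV4, cell wall invertases that split sucrose outside the cell. The labels give neither plant age, light regime nor time of day at collection, and 1 line cannot separate the construct from its place of insertion.

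Light energy is gathered by chlorophyll-binding antenna proteins and passed to the reaction centres of photosystem II, which oxidises water, and photosystem I, which reduces ferredoxin. Electrons pass between the photosystems through the cytochrome b6f complex and plastocyanin, and ferredoxin-NADP reductase makes the NADPH that the Calvin cycle uses to fix carbon dioxide with Rubisco. The reaction centre cores and the large subunit of Rubisco are encoded in the chloroplast, while the genes treated here are read in the nucleus and their products are imported. These genes are known to respond to light, sugars, the circadian clock and the state of the chloroplast. In young flower buds green tissue lies mainly in the sepals, and in part in young carpels and anthers.

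The libraries held 22.5 to 26.2 M gene reads in amiRNACWIN24 and 25.5 to 26.7 M in WT, computed from the size of 1 read in RPKM (reads per kilobase of exon and per M mapped reads). CWINV4 was at 13.8 ± 1.76 RPKM in amiRNACWIN24 and 26.9 ± 2.61 RPKM in WT (SD, n = 4 each; limma adjusted p = 0.00015). CWINV2 was at 0.0166, 0.104, 0.0504 and 0.0674 RPKM in amiRNACWIN24, against 2.75, 0.0161, 0.0167 and 0.0317 RPKM in WT, too low to be tested. Besides STK, the floral organ identity genes AP1, AP2, AP3, PI, AG, SEP3 and CRC averaged 30.9 to 220 RPKM in amiRNACWIN24 and 22.2 to 258 RPKM in WT, so these flower markers were present in both genotypes. Among them AP2 rose (log2 fold change 0.51, limma adjusted p = 0.0017; 0.38 with the trend over exon length removed, where it still rose), PI fell (-0.32, limma adjusted p = 0.013; not passed at -0.13 with the length trend removed) and the other 5 did not pass as deposited, though AG fell with the length trend removed (-0.28). STK itself fell to 0.599 ± 0.156 RPKM in amiRNACWIN24, against 9.82 ± 1.44 RPKM in WT (SD, n = 4 each; log2 fold change -3.23, limma adjusted p = 1.6e-06). Of 10 genes of late pollen and pollen coat 7 fell by the same test (limma adjusted p under 0.05, as did 21.0% of all genes tested), and their summed level was 228 to 348 RPKM in amiRNACWIN24 and 984 to 1524 RPKM in WT, with none of the 10 at 0 in any library. GRP14 and GRP16, oleosin genes of the pollen coat, averaged 188 and 73.0 RPKM in amiRNACWIN24 and 651 and 286 RPKM in WT. The sum is therefore not that of pollen transcripts alone. The smallest p-values were those of AGL104, VGD1 and GRP14 (log2 -1.79, -2.80 and -1.79). The WT libraries differed among themselves in some of these, with the pollen gene AGP11, named after its values were seen, at 0.596, 0.572, 1.2 and 0.754 RPKM in amiRNACWIN24 replicates 1 to 4, against 31.3, 20.3, 1.3 and 3.46 RPKM in WT replicates 1 to 4. With WT replicates 1 and 2 left out, 41 of the 46 photosynthesis genes fell, as did 3867 of all 19082 genes tested. In that fit 7 of the 10 pollen and pollen coat genes fell as well, so it does not set the pollen difference aside. In bulk buds, fewer cells of a type and less RNA per cell cannot be told apart, and the part of pollen content in the results that follow was not tested.

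Photosynthesis transcripts were lower in amiRNACWIN24 buds. In the values as deposited 41 of the 46 genes fell, 1 rose (FNR2) and 4 did not pass the test (PSBO1, FNR1, RBCS2B and RCA), by limma on log2(RPKM + 0.5) with an adjusted p under 0.05 over 19082 genes. Over all those genes 21.0% fell and 29.4% rose. The median log2 fold change of the 46 genes, amiRNACWIN24 over WT, was -0.51 (range -0.88 to 0.24), beside 0.07 over all genes tested. In 38 of the 46 genes every amiRNACWIN24 library was below every WT library, a pattern found in 18.4% of all genes tested, and in FNR2 every amiRNACWIN24 library was above every WT library, as in 27.4% of all genes. All 46 genes passed the filter on low values, a mean of at least 1 RPKM. With a minimum change of 1.5-fold added, 16 of the 46 fell (8.72% of all genes) and 11.1% of all genes rose, with FNR2 below that size.

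The count depended on how the values were scaled. Fold changes in these libraries ran with exon length across the whole transcriptome, and the photosynthesis genes are short. With the trend over exon length removed from each library, 23 of the 46 fell (limma, 14.2% of 18994 genes) and the median was -0.26. Under quantile normalization, which gives every library the same distribution of values, 21 fell (24.7% of all genes) and 3 rose, FNR1, FNR2 and RCA (28.8% of all genes), with a median of -0.12. A gene that keeps its rank in every library gets the same value in all of them. The most abundant genes can therefore hardly move there. RBCS1A and LHCB1.3, ranks 1 and 2 by mean RPKM in both genotypes, were at 0.00. Genes that fell as deposited, with the length trend removed and under quantile normalization numbered 14, of which 7 encode photosystem II antenna proteins. They were LHCB1.1, LHCB1.2, LHCB2.1, LHCB2.2, LHCB3, LHCB4.2, LHCB6, PSAD1, PSAE1, PSAH1, PSAK, PSBW, PSBX and PETE1, and 11 further genes fell as deposited only. The share of all genes that fell in all 3 fits was not computed, so the count of 14 has no background beside it. Nor does a missing call under quantile normalization show that an abundant gene did not fall.

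These transcripts are among the most abundant in the bud. RBCS1A and LHCB1.3 had ranks 1 and 2 of all genes by mean RPKM in both genotypes, and 33 of the 46 in amiRNACWIN24 and 34 in WT stood among the top 100. Together the 46 genes took 4.77, 4.98, 4.40 and 5.18% of all gene reads in amiRNACWIN24 replicates 1 to 4, against 6.88, 7.20, 6.78 and 6.63% in WT replicates 1 to 4. The shares did not overlap, at 4.83 ± 0.33% in amiRNACWIN24 and 6.87 ± 0.241% in WT (SD, n = 4 each). Their summed level was 37564 ± 2738 RPKM in amiRNACWIN24 and 53552 ± 3407 RPKM in WT, or 70.1% of WT. Gene reads fell furthest short of the mapped reads behind RPKM in amiRNACWIN24 replicate 2 (22.5 of 25.6 M) and WT replicate 1 (25.5 of 29.1 M). The 2 measures therefore rank libraries differently, and WT replicate 1 had the lowest summed level of its group (49940 RPKM) but not the lowest share. Its part in the overlaps through WT replicate 1 described below was not tested.

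**Figure D1:**
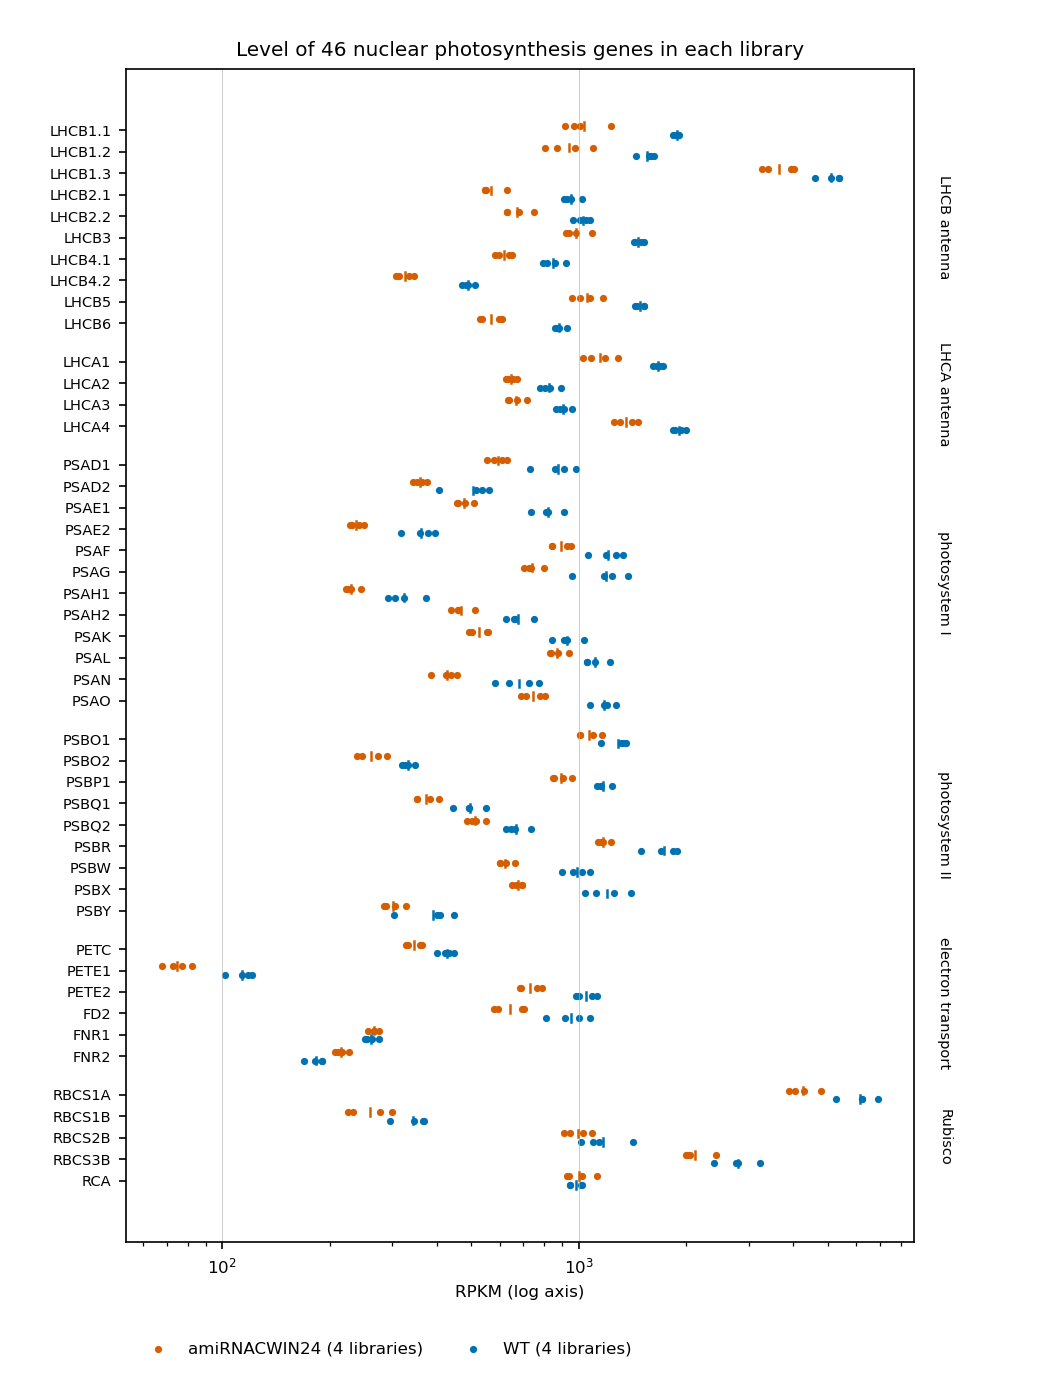
RPKM of each of the 46 genes on a log axis, grouped by role, with 1 point per library (orange amiRNACWIN24, blue WT, 4 libraries each) and a bar at each group mean. The orange points lie left of the blue points without overlap in 38 genes and right of them in FNR2, and most genes lie near 1000 RPKM or a few times below it.

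Within each genotype, most of the 46 genes also had the same highest library. Replicate 4 had the highest amiRNACWIN24 value for 44 of the 46 genes, and replicates 3 and 2 the lowest for 29 and 16. Among WT libraries replicate 2 was highest for 36 genes, and replicates 1 and 4 were lowest for 26 and 19. These ranks were not counted over all genes. A shift of a whole library and a joint shift of these genes therefore cannot be told apart. The coefficient of variation between replicates had a median of 6.94% in amiRNACWIN24 (2.89% for FNR1 to 13.7% for LHCB1.2) and 7.08% in WT (1.72% for LHCB1.1 to 15.7% for PSBY).

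Because the genes fell together, the bases upstream of their annotated starts were searched for short promoter motifs. The 250 bases before the start are shown for LHCB1.1, PSAK and LHCB6, which fell, for RCA, which did not pass the test, and for FNR2, which rose. Sequences are from the RefSeq genome TAIR10.1, written 5′ to 3′ on the coding strand. Capitals mark matches to 4 motifs on either strand. One is GATAAG, known as the I-box core of light-responsive promoters. Another is CACGTG, the G-box, to which light-signalling factors such as HY5 bind. The others are CCAAT, the letters read by nuclear factor Y, and the TATA motif spelled TATAAA.
LHCB1.1, chr1:10475970-10476219, minus strand: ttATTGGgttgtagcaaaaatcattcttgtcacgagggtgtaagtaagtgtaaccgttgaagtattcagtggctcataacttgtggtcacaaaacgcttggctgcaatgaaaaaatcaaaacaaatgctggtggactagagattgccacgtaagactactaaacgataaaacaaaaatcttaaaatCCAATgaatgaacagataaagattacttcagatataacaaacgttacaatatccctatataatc
PSAK, chr1:10721933-10722182, plus strand: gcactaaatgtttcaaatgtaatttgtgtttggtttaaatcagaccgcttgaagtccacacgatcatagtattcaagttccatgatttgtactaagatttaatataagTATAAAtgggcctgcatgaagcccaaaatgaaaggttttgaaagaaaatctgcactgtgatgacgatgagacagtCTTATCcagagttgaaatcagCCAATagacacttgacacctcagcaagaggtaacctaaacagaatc
LHCB6, chr1:5447881-5448130, minus strand: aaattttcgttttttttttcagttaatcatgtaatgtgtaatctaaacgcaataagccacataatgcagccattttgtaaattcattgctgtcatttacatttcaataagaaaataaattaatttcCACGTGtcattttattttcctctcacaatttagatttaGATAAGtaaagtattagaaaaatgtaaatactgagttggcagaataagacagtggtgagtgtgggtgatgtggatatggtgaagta
RCA, chr2:16573693-16573942, minus strand: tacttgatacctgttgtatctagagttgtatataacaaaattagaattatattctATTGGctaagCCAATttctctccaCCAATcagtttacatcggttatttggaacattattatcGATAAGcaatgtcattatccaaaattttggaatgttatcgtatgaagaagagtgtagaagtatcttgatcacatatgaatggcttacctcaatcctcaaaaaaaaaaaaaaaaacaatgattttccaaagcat
FNR2, chr1:6942375-6942624, plus strand: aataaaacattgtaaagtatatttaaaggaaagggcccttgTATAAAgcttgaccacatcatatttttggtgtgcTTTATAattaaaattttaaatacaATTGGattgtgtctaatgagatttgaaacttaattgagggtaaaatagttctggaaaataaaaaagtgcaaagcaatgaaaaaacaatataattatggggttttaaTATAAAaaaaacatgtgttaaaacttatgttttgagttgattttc
LHCB6 holds a G-box 124 bases and an I-box core 86 bases before the start, PSAK an I-box core at 67 and a CCAAT at 46, and LHCB1.1 a CCAAT at 248 and at 64. RCA holds an I-box core at 133 and a CCAAT at 195, 185 and 171, and FNR2 a CCAAT at 151 and TATAAA at 209, 175 and 45.

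Searched on both strands in all 46 windows, GATAAG occurred in 14 (30.4%), against 12.3% of the windows of 27443 protein-coding genes. CACGTG occurred in 8 of 46 (17.4%), against 6.49% of all windows. CCAATC occurred in 12 (26.1%, against 10.2%) and the shorter CCAAT, which is part of it, in 29 (63.0%, against 46%). All 10 LHCB antenna genes but LHCB6 held a CCAAT, as did all 4 LHCA antenna genes, while TATAAA was in 20 windows (43.5%, against 47.3%). AAAAATCT, a site known to be bound by the clock protein CCA1, was in 4 (8.70%, against 6.69%), and AAAATATCT, the evening element, was in 0 of these windows, against 2.36% of all. Genes that did not pass the test held the I-box core as well, with FNR1, RBCS2B and RCA among the 14. A match is a stretch of letters in the reference and no measure of binding.

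The antenna of photosystem II had the lowest median of the 6 roles. All 10 LHCB genes fell without overlap (median log2 -0.60, range -0.88 to -0.45). With the length trend removed 9 fell, beside 14.2% of all genes. Under quantile normalization 7 fell, beside 24.7% of all genes, and the 0.00 of LHCB1.3 was set by its rank. Their summed level was 10406 ± 967 RPKM in amiRNACWIN24 and 15694 ± 688 RPKM in WT (SD, n = 4 each), or 66.3% of WT. LHCB1 and LHCB2 encode the main proteins of the trimeric antenna LHCII, LHCB3 another protein of the trimer, and LHCB4, LHCB5 and LHCB6 single antenna proteins that sit between the trimers and the core.

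LHCB1.1 (AT1G29920; chromosome 1, 10474656 to 10475969 in TAIR10) had the largest fall of the 46 genes in the values as deposited. It was at 1010, 971, 913 and 1233 RPKM in amiRNACWIN24 replicates 1 to 4, against 1840, 1905, 1909 and 1871 RPKM in WT. The WT libraries lay close together and all 4 amiRNACWIN24 libraries lay far below them (log2 fold change -0.88, SE 0.117, limma adjusted p = 0.00032). Its neighbour LHCB1.2 (AT1G29910) fell to 974, 868, 806 and 1100 RPKM in amiRNACWIN24, against 1444, 1590, 1623 and 1578 RPKM in WT (log2 -0.74). LHCB1.3 (AT1G29930), which lies on the other side and is the most abundant antenna transcript, was at 3946, 3385, 3271 and 4014 RPKM in amiRNACWIN24, against 4593, 5359, 5376 and 5086 RPKM in WT. Its groups did not overlap (log2 -0.49, SE 0.137, limma adjusted p = 0.013), but the difference no longer passed without amiRNACWIN24 replicate 3 (-0.43, limma adjusted p = 0.059) or with the length trend removed (-0.25, limma adjusted p = 0.11).

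These 3 LHCB1 genes form a cluster on chromosome 1, with 1153 bp between LHCB1.2 and LHCB1.1. Another 1915 bp separate LHCB1.1 from LHCB1.3, which is read in the opposite direction. Their coding sequences are 95.6 to 96.4% identical in pairs, with identical runs of up to 119 bases, a little under the read length of 125 bases. How reads that match several copies were counted is not given in the sources used here, so the split among the 3 genes is uncertain. Their sum is less exposed to this, and each of the 3 was lower in every amiRNACWIN24 library. LHCB2.1 and LHCB2.2 are 77.7% identical but share a run of 137 coding bases, shown here because it is longer than a read. A read within this run fits both genes, unless its mate tells them apart.
LHCB2.1 and LHCB2.2, coding bases 211 to 347 of each, chromosome 2, minus strand: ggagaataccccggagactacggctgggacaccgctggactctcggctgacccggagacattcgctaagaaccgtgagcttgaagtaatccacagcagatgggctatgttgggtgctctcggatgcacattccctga
LHCB2.1 (AT2G05100) was at 549, 547, 546 and 629 RPKM in amiRNACWIN24, against 930, 1024, 949 and 908 RPKM in WT (log2 -0.75, SE 0.094, limma adjusted p = 0.00025). LHCB2.2 (AT2G05070) was at 681, 631, 631 and 748 RPKM in amiRNACWIN24, against 966, 1076, 1049 and 1010 RPKM in WT (log2 -0.61). In both genes amiRNACWIN24 replicate 4 was the highest of its group and still below every WT library.

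Among the other antenna genes of photosystem II, LHCB6 averaged 567 ± 42.3 RPKM in amiRNACWIN24 and 883 ± 31.4 RPKM in WT (log2 -0.64) and LHCB4.2 325 ± 18 RPKM in amiRNACWIN24 and 488 ± 17.6 RPKM in WT (log2 -0.59; SD, n = 4 each). LHCB3 and LHCB5 were at 66.8 and 70.9% of WT and LHCB4.1 at 72.9%. With the length trend removed these 5 genes stood at log2 fold changes of -0.44 to -0.32 and all fell. Under quantile normalization LHCB4.1 and LHCB5 were at -0.11 and -0.07 and did not pass.

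The 4 antenna genes of photosystem I fell by a little less (median log2 -0.47, range -0.55 to -0.35), all without overlap and all also with the length trend removed, while under quantile normalization they were at -0.08 to 0.01 with LHCA2 on the other side of 0. LHCA1 and LHCA4 form one of the antenna dimers bound to photosystem I, and LHCA2 and LHCA3 the other. LHCA4 (AT3G47470) was at 1415, 1305, 1257 and 1466 RPKM in amiRNACWIN24, against 2004, 1930, 1863 and 1837 RPKM in WT. The highest amiRNACWIN24 library was well below the lowest WT library (log2 -0.49, SE 0.105, limma adjusted p = 0.0033). LHCA3, the longest of the 4 in exon length (1625 nt), was at -0.44 as deposited and -0.43 with the length trend removed.

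All 12 photosystem I subunit genes fell without overlap as deposited (median log2 -0.58, range -0.81 to -0.35). With the length trend removed 4 fell (PSAD1, PSAE1, PSAH1 and PSAK), beside 14.2% of all genes, and PSAH2 was at 0.02. Under quantile normalization 10 fell, beside 24.7% of all genes, and PSAL was at 0.01. PSAK (AT1G30380), a subunit at the rim where the antenna binds, was at 553, 492, 503 and 557 RPKM in amiRNACWIN24, against 907, 1032, 929 and 842 RPKM in WT. The amiRNACWIN24 values reached no higher than 557 RPKM and the WT values no lower than 842 RPKM (log2 -0.81, SE 0.099, limma adjusted p = 0.00021; -0.31 with the length trend removed, limma adjusted p = 0.0074). PSAG, a related rim subunit, was at 725, 704, 736 and 797 RPKM in amiRNACWIN24, against 959, 1378, 1241 and 1177 RPKM in WT (log2 -0.67), but it did not pass with the length trend removed (-0.17, limma adjusted p = 0.21).

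The subunits at the stromal face, where ferredoxin docks, are encoded by gene pairs. PSAE1 (AT4G28750) was at 481, 457, 459 and 507 RPKM in amiRNACWIN24, against 810, 910, 821 and 736 RPKM in WT, so that no value was shared between the genotypes (log2 -0.78, SE 0.096, limma adjusted p = 0.00022). PSAE2 fell by 0.60 on the log2 scale and PSAD1 and PSAD2 by 0.55 and 0.48. With the length trend removed PSAE1 and PSAD1 still fell (-0.29 and -0.26) and PSAE2 and PSAD2 were at 0.00 and -0.09. On the lumen side PSAN, which takes part in the docking of plastocyanin, was at 62.7% of WT and PSAF, the main docking subunit, at 73.5%. At the side where LHCII can attach, PSAO was at 63.2%, PSAH1 at 71.2%, PSAH2 at 69.5% and PSAL at 78.3% of WT.

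PSAG shares 479 bp with AT1G55673 on the other strand. That gene was listed at 138, 84.6, 58.8 and 129 RPKM in amiRNACWIN24 and at 0 in all 4 WT libraries, while PSAG moved the other way. Whether reads were counted by strand is not given in the sources used here, so the reads of the pair cannot be told apart with certainty. In all, 16 of the 46 genes overlap another annotated gene, 15 of them one on the other strand, and with all overlapping genes left out 27 of the remaining 30 fell. Such partners were at 8.80% of PSAN, 12% of PSAE2 and 6.0% of LHCB4.2 in amiRNACWIN24 by mean RPKM.

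Of the 9 photosystem II subunit genes 8 fell as deposited (median log2 -0.39), beside 21.0% of all genes. With the length trend removed 3 fell (PSBP1, PSBW and PSBX), beside 14.2% of all genes. Under quantile normalization 2 fell (PSBW and PSBX), beside 24.7% of all genes, and PSBO1 was at 0.12. As deposited the 3 lowest fold changes were those of PSBX, PSBW and PSBR, all small membrane subunits. PSBX (AT2G06520) was at 693, 649, 666 and 694 RPKM in amiRNACWIN24, against 1044, 1401, 1256 and 1115 RPKM in WT. The amiRNACWIN24 libraries were close together and all well below WT (log2 -0.82, SE 0.112, limma adjusted p = 0.00034; -0.29 with the length trend removed, limma adjusted p = 0.018). PSBW fell by 0.67 and PSBR by 0.56 on the log2 scale, but with the length trend removed PSBR was at -0.06 and did not pass (limma adjusted p = 0.65). PSBY, another small membrane subunit, at 305, 288, 285 and 327 RPKM in amiRNACWIN24 against 303, 446, 401 and 407 RPKM in WT, passed while its groups overlapped through WT replicate 1 (log2 -0.36, limma adjusted p = 0.031). The call of PSBY was lost when any one of 6 of the 8 libraries was left out.

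The extrinsic proteins of the oxygen-evolving complex, which shield the site of water oxidation, had smaller differences. PSBO1 (AT5G66570), its most abundant transcript, was at 1096, 1007, 1006 and 1161 RPKM in amiRNACWIN24, against 1156, 1355, 1313 and 1329 RPKM in WT. Its groups overlapped by WT replicate 1 alone and it did not pass (log2 -0.27, SE 0.105, limma adjusted p = 0.052), though it did without that library (-0.32, limma adjusted p = 0.016). PSBO2, PSBP1, PSBQ1 and PSBQ2 fell by 0.34 to 0.41 on the log2 scale, to 75.4 to 79.0% of WT, all without overlap.

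In electron transport 4 of the 6 genes fell, 1 rose and 1 did not pass as deposited (median log2 -0.41). Over all genes 21.0% fell and 29.4% rose. With the length trend removed 2 of the 6 fell, beside 14.2% of all genes. Under quantile normalization 2 fell and 2 rose, beside 24.7% and 28.8% of all genes. The carriers fell: PETE1 and PETE2 encode plastocyanin, the soluble copper protein of the lumen, FD2 the main leaf ferredoxin, and PETC the Rieske protein of the cytochrome b6f complex. PETE2 (AT1G20340) was at 766, 684, 691 and 788 RPKM in amiRNACWIN24, against 983, 1125, 1093 and 1000 RPKM in WT (log2 -0.52, SE 0.10, limma adjusted p = 0.0018; -0.36 with the length trend removed, limma adjusted p = 0.0058). PETE1, the least abundant of the 46, was at 82.4, 67.7, 72.7 and 76.9 RPKM in amiRNACWIN24, against 102, 118, 121 and 114 RPKM in WT (log2 -0.60). Both plastocyanin genes were separate between the genotypes. FD2 fell by 0.56 on the log2 scale and PETC by 0.30, and PETC was at 0.01 both with the length trend removed and under quantile normalization.

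The enzyme at the end of the chain, ferredoxin-NADP reductase, went another way. FNR2 (AT1G20020; chromosome 1, 6942625 to 6945091 in TAIR10) was at 217, 211, 207 and 227 RPKM in amiRNACWIN24, against 190, 191, 170 and 182 RPKM in WT. Every amiRNACWIN24 library was above every WT library (log2 0.24, SE 0.076, limma adjusted p = 0.024). The rise did not pass with the length trend removed (0.16, limma adjusted p = 0.13) and was lost without amiRNACWIN24 replicate 1 or 4 or WT replicate 3 or 4 (0.20 to 0.23, limma adjusted p = 0.055 to 0.086). FNR1 (AT5G66190) was at 267, 266, 257 and 276 RPKM in amiRNACWIN24, against 251, 275, 263 and 255 RPKM in WT, with the groups intermixed (log2 0.03, limma adjusted p = 0.77; -0.03 under median-of-ratios scaling). FNR1 and FNR2 lie at 1509 and 1834 nt of exon, longer than most of the 46 genes.

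In 4 of the 5 Rubisco genes the libraries of the genotypes overlapped. Of the 5 genes 3 fell as deposited (RBCS1A, RBCS1B and RBCS3B), with a median log2 of -0.39, beside 21.0% of all genes. With the length trend removed 1 fell (RBCS1B), beside 14.2% of all genes. Under quantile normalization RCA rose, beside 28.8% of all genes, RBCS2B was at 0.14, and RBCS1A was held at 0.00 by its rank. RBCS1A (AT1G67090), the most abundant transcript of the bud and the main small subunit gene, was at 4285, 3884, 4036 and 4785 RPKM in amiRNACWIN24, against 5253, 6897, 6238 and 6241 RPKM in WT. The genotypes did not overlap, with WT replicate 1 the lowest of its group (log2 -0.53, SE 0.145, limma adjusted p = 0.012; -0.33 with the length trend removed, limma adjusted p = 0.059). RCA (AT2G39730), which encodes the activase that frees Rubisco of bound sugar phosphates, was at 941, 1024, 927 and 1125 RPKM in amiRNACWIN24, against 946, 1022, 947 and 1017 RPKM in WT. Its libraries were intermixed (log2 0.03, SE 0.102, limma adjusted p = 0.84), and its value was -0.14 with the length trend removed, -0.03 under median-of-ratios scaling and 0.41 under quantile normalization (limma adjusted p = 0.0026).

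RBCS3B, RBCS2B and RBCS1B follow each other on the minus strand of chromosome 5, with 2264 and 1095 bp between them. Their coding sequences are 94.1 to 97.3% identical, and RBCS1B and RBCS3B share a run of 230 bases, longer than a read. It is printed here because a read within it fits both genes, unless its mate tells them apart.
RBCS1B coding bases 307 to 536 and RBCS3B coding bases 322 to 551, minus strand: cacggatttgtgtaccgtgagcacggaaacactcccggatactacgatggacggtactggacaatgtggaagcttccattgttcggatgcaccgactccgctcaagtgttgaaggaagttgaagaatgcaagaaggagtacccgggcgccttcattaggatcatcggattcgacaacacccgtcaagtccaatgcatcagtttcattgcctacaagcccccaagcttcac
RBCS3B (AT5G38410) was at 2008, 2048, 2006 and 2425 RPKM in amiRNACWIN24, against 2389, 3230, 2799 and 2765 RPKM in WT, and RBCS1B (AT5G38430) at 277, 226, 233 and 299 RPKM in amiRNACWIN24, against 296, 366, 367 and 345 RPKM in WT. RBCS2B (AT5G38420) was at 912, 1025, 945 and 1090 RPKM in amiRNACWIN24, against 1013, 1419, 1096 and 1143 RPKM in WT. In each of the 3 the groups overlapped through WT replicate 1, and RBCS2B did not pass (log2 -0.22, limma adjusted p = 0.16). The call of RBCS3B (log2 -0.39, limma adjusted p = 0.031) was lost when any one of 6 of the 8 libraries was left out (limma adjusted p = 0.062 to 0.092).

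**Figure D2:**
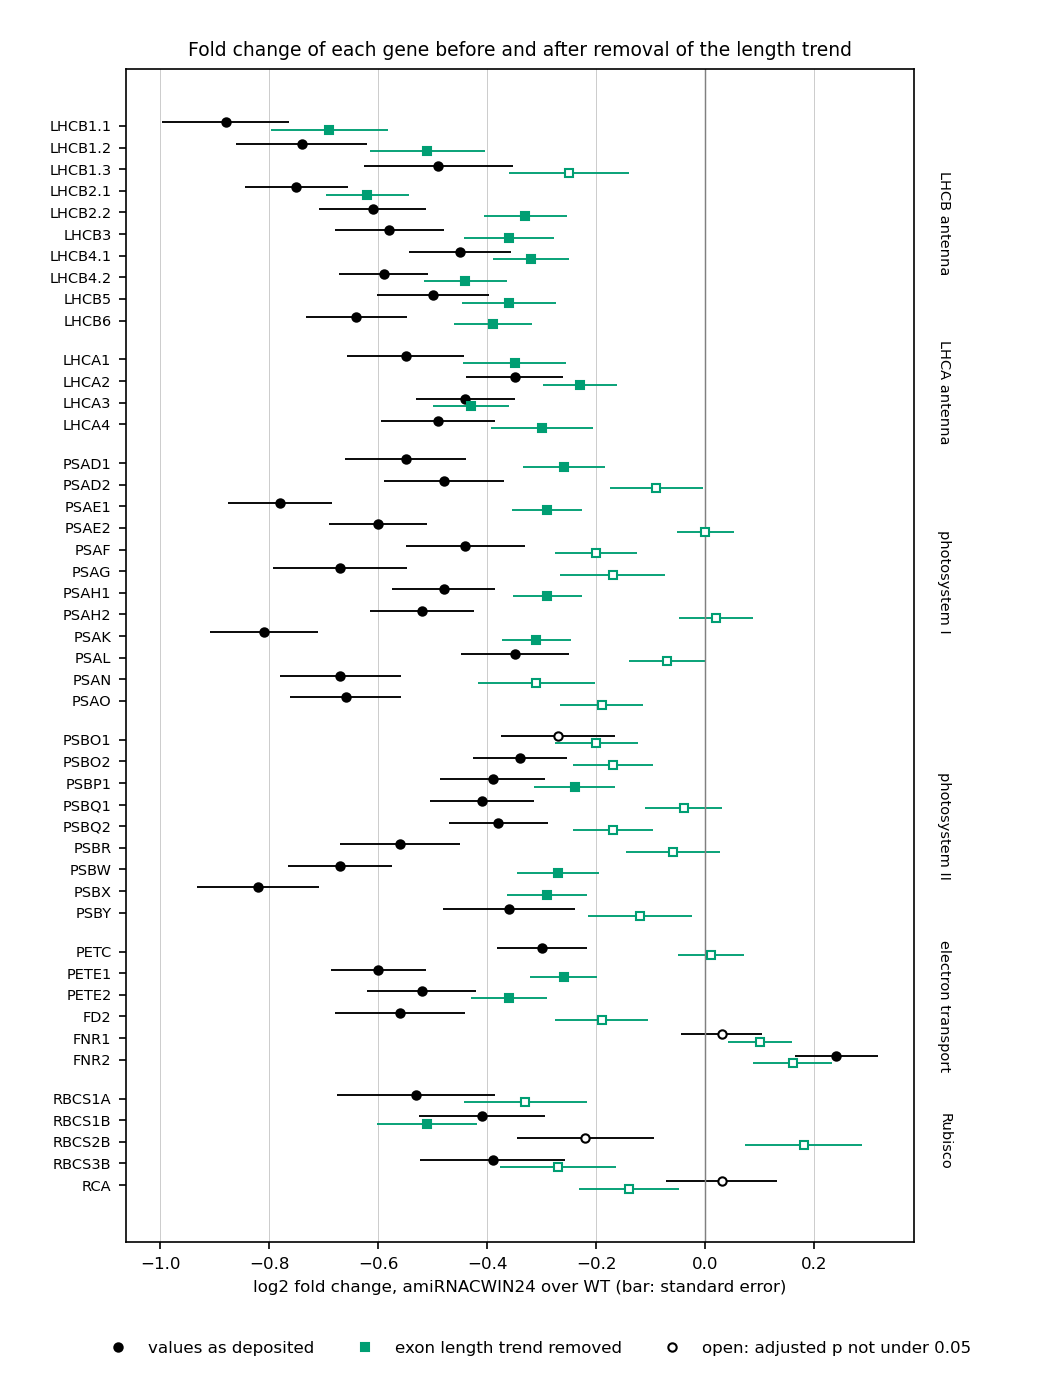
Log2 fold change (amiRNACWIN24 over WT, with its standard error) of each of the 46 genes from the values as deposited (black circles) and with the trend over exon length removed in each library (green squares); open symbols did not reach a limma adjusted p under 0.05. As deposited 41 genes fell, and with the length trend removed 23 fell and PSAH2, PETC and RBCS2B moved to the right of 0 while RCA moved to its left.

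Exon length ran with the fold changes. The 46 genes have a median exon length of 1226 nt (607 to 2101), beside 1764 nt over all genes tested, and 43 of the 46 are shorter than that. Across all 18994 tested genes with a length, log2 fold change and log2 exon length had a Pearson r of 0.56, and across the 46 genes r was also 0.56, as descriptions over genes that share the same 8 libraries. In each library the log2 level of a gene, minus its mean over the 8 libraries, was set against log2 exon length. The slopes per doubling were 0.192, 0.221, 0.239 and 0.246 in amiRNACWIN24 replicates 1 to 4, against -0.165, -0.366, -0.239 and -0.128 in WT replicates 1 to 4. Since each gene was centred on all 8 libraries, opposite signs follow once the groups differ, and only the difference between libraries has meaning. The slopes did not overlap between the genotypes, so the length trend cannot be told apart from genotype in these libraries.

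By length, the 13 genes of up to 1000 nt had median log2 fold changes of -0.60 as deposited and -0.17 with the trend removed, where 4 fell. The 17 genes over 1000 and up to 1300 nt had medians of -0.53 and -0.29, and 9 fell with the trend removed. In the 10 genes over 1300 and up to 1500 nt the medians were -0.48 and -0.34, with 8 that fell. In the 6 genes over 1500 nt they were -0.12 and -0.17, and 2 fell with the trend removed. Set beside genes of like length, in 20 bins of all tested genes, 33 of the 46 were below the lower quartile of their bin and 42 below its median. By role, all 10 LHCB and all 4 LHCA antenna genes were below the lower quartile of their length bin, as were 8 of 12 photosystem I genes, 5 of 9 photosystem II genes, 3 of 6 electron transport genes and 3 of 5 Rubisco genes.

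**Figure D3:**
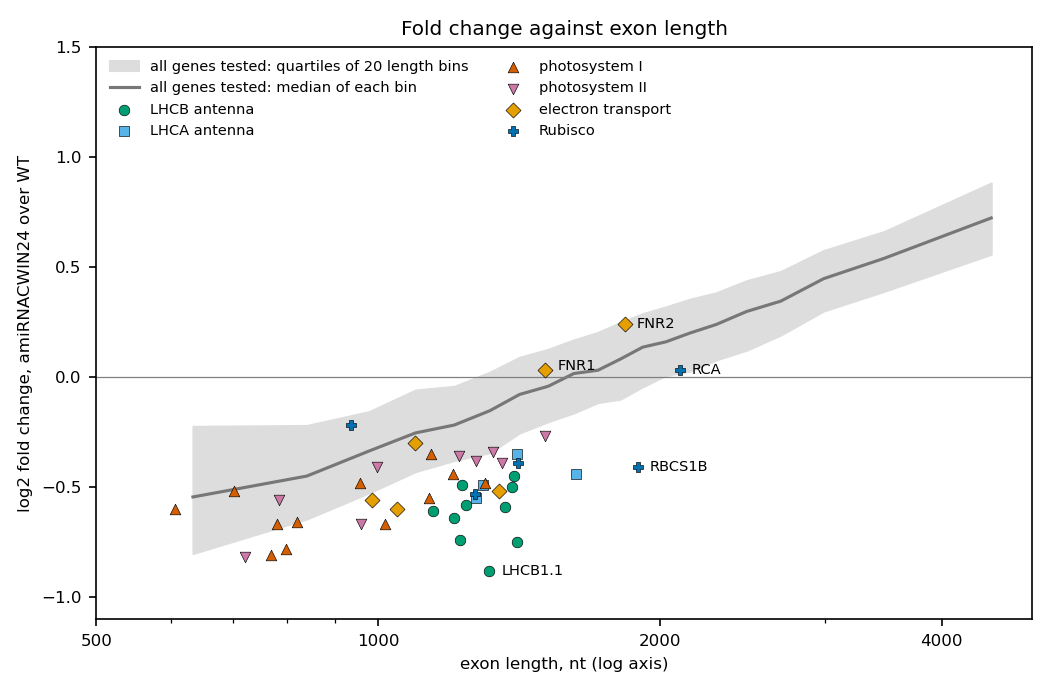
Log2 fold change (amiRNACWIN24 over WT) of the 46 genes, marked by role, against exon length in nt on a log axis; the grey line and band are the median and quartiles of all tested genes in 20 length bins. Of the 46 genes 33 are below the lower quartile of their length bin, LHCB1.1 farthest below it, while FNR1 and FNR2 lie within the band.

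Gene pairs that encode the same subunit allow a comparison inside each library, free of library scaling. The log2 ratio of the copies was compared between genotypes for 9 pairs by exact permutation of the genotype labels (two-sided, 70 arrangements, smallest possible p of 0.029), with Benjamini-Hochberg adjustment over the 9. No pair passed, and 4 pairs reached the smallest unadjusted p (adjusted p = 0.064). With that floor, even these 4 fully separated pairs stayed above 0.05 after adjustment over 9. The failure to pass therefore says nothing about any 1 pair. The PSAE1/PSAE2 log2 ratio was 0.94, 0.98, 1.01 and 1.06 in amiRNACWIN24, against 1.18, 1.2, 1.12 and 1.21 in WT (difference -0.18, exact permutation p = 0.029), and this difference was -0.29 with the length trend removed. The LHCB2.1/LHCB2.2 ratio differed by -0.14 (-0.29 with the length trend removed) and LHCB4.1/LHCB4.2 by 0.13 (0.12 with the length trend removed), both without overlap between the genotypes as deposited. The FNR1/FNR2 ratio was 0.30, 0.33, 0.31 and 0.28 in amiRNACWIN24, against 0.40, 0.53, 0.63 and 0.49 in WT, without overlap (difference -0.21, exact permutation p = 0.029), but the difference was -0.06 with the length trend removed.

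The other pairs had overlapping groups. PSAD1/PSAD2 differed by -0.07 (exact permutation p = 0.086), or by -0.18 with the length trend removed (exact permutation p = 0.029, adjusted p = 0.064). By exact permutation PSBO1/PSBO2 differed by 0.07 (p = 0.11), PETE1/PETE2 by -0.08 (p = 0.17), PSAH1/PSAH2 by 0.04 (p = 0.49) and PSBQ1/PSBQ2 by -0.03 (p = 0.63). Copies of a pair differ in exon length, by most in PSAH1 (1300 nt) and PSAH2 (702 nt), whose difference turned to -0.32 with the length trend removed (exact permutation p = 0.029, adjusted p = 0.064). In level, PSBO1 was the major copy over PSBO2 by log2 2.03 ± 0.031 in amiRNACWIN24 and 1.96 ± 0.075 in WT, and PETE2 over PETE1 by more than 3 on the log2 scale in each library (PETE1/PETE2 -3.28 ± 0.067 in amiRNACWIN24 and -3.20 ± 0.067 in WT; SD, n = 4 each).

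**Figure D4:**
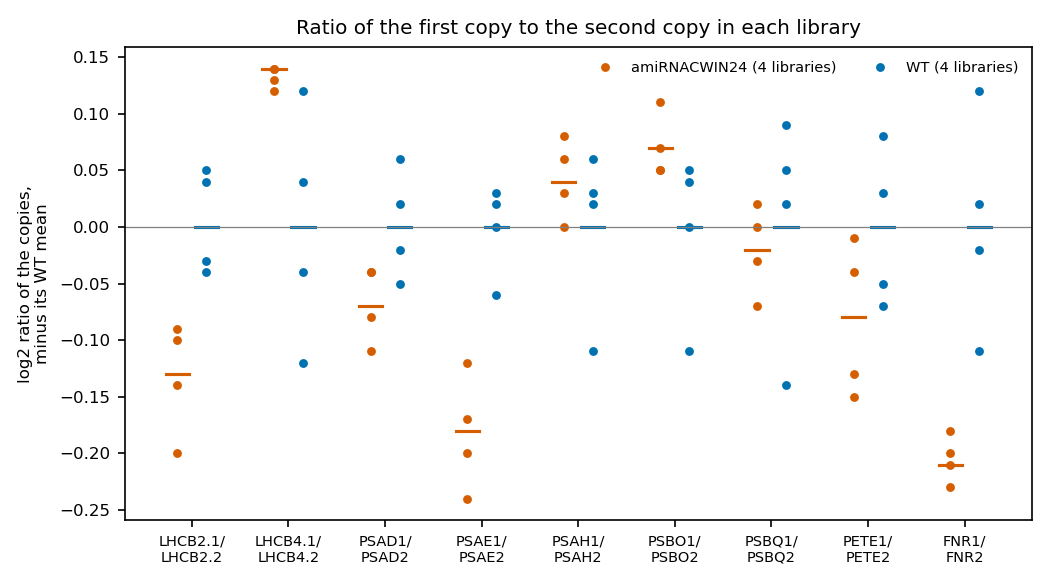
Log2 ratio of RPKM between the copies of 9 gene pairs in each library (orange amiRNACWIN24, blue WT, 4 libraries each), shown minus the WT mean of the pair, with a bar at each group mean. The genotypes do not overlap for LHCB2.1/LHCB2.2, LHCB4.1/LHCB4.2, PSAE1/PSAE2 and FNR1/FNR2, and the other 5 pairs overlap.

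The authors' deposited table, whose test is not given in the sources used here, lists 43 of the 46 genes with a false discovery rate under 0.05 and a negative log2 fold change, with a median of -0.60 (18.4% of its 25880 genes were lower and 15.6% higher by that rule). It lists FNR1 at -0.06, RCA at -0.06 and FNR2 at 0.15 without passing, and PSBO1 and RBCS2B at -0.36 and -0.32 as passing. The log2 fold changes of the authors' deposited table were lower than those computed here by a median of 0.09 over all genes tested and also over the 46 genes (-0.089 and -0.091).

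Other genes of the light reactions had a mixed pattern. Of 25 such genes 13 fell, 1 rose and 11 did not pass (median log2 -0.31), beside 21.0% of all genes that fell and 29.4% that rose. With the length trend removed 5 fell and 2 rose, beside 14.2% and 15.1% of all genes. Further LHCB genes differed among themselves. LHCB1.4 was at 72, 55.6, 45.5 and 74.3 RPKM in amiRNACWIN24, against 136, 126, 149 and 137 RPKM in WT (log2 -1.17; -0.99 with the length trend removed). LHCB1.5 averaged 2414 RPKM in amiRNACWIN24 and 4272 RPKM in WT (log2 -0.82), and LHCB2.4 122 RPKM in amiRNACWIN24 and 206 RPKM in WT (log2 -0.77). LHCB4.3 averaged 83.3 RPKM in amiRNACWIN24 and 76.9 RPKM in WT and did not pass (log2 0.12), but rose with the length trend removed (0.22), and LHCB7 did not pass either way (-0.13 and 0.11). PGR5, a protein of cyclic electron flow around photosystem I, was at 52.9, 55.5, 56 and 61.0 RPKM in amiRNACWIN24, against 97.1, 94.0, 86.7 and 81.9 RPKM in WT (log2 -0.67, limma adjusted p = 0.0002). PSBS, which is needed to dissipate excess light as heat, did not pass (log2 -0.10, limma adjusted p = 0.45), nor did the ATP synthase subunits ATPC1, ATPD and ATPG (0.02, -0.16 and -0.11).

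Genes of carbon fixation and chlorophyll synthesis mostly did not pass, in a fit where 21.0% of all genes fell and 29.4% rose. Of 15 Calvin cycle genes 2 fell (CP12-1 and RPE), 1 rose (TKL1) and 12 did not pass (median log2 -0.12). CP12-1, a small regulator that binds other enzymes of the cycle, averaged 304 RPKM in amiRNACWIN24 and 475 RPKM in WT (log2 -0.64; -0.22 with the length trend removed, where it still fell), and TKL1, a transketolase, 351 RPKM in amiRNACWIN24 and 264 RPKM in WT (log2 0.41, but -0.02 with the length trend removed). RPE was at -0.20 (0.08 under quantile normalization), and its call was lost when any one of 6 of the 8 libraries was left out. Of 21 chlorophyll synthesis genes 4 fell, 3 rose and 14 did not pass (median log2 0.04). PORA, PORB and PORC encode forms of the light-dependent protochlorophyllide reductase. PORA, a low transcript, fell to 1.92 RPKM in amiRNACWIN24, against 3.40 RPKM in WT (log2 -0.67). The far more abundant PORB rose to 373 RPKM in amiRNACWIN24, against 276 RPKM in WT (0.43), and PORC did not pass (0.01). GUN4, an activator of magnesium chelatase, was at 48.3, 43.8, 51.9 and 57.6 RPKM in amiRNACWIN24, against 52.3, 79.1, 78.9 and 80.6 RPKM in WT (log2 -0.51, limma adjusted p = 0.013), overlapping through WT replicate 1. Its call was lost with the length trend removed (-0.32, limma adjusted p = 0.077). CHLD, a subunit of magnesium chelatase, rose (log2 0.34, limma adjusted p = 0.0087) but was at 0.03 and did not pass with the length trend removed.

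Among 15 regulators of photosynthesis genes 7 rose, 1 fell and 7 did not pass (median log2 0.21), beside 29.4% of all genes that rose. With the length trend removed 4 of the 15 rose, beside 15.1% of all genes. GLK1, a transcription factor known to activate antenna and chlorophyll genes, rose. It was at 28.9, 32.8, 34.0 and 35.6 RPKM in amiRNACWIN24, against 25.1, 21.1, 22.9 and 22.0 RPKM in WT. All 4 amiRNACWIN24 libraries were above WT (log2 0.52, limma adjusted p = 0.00092; 0.48 with the length trend removed). Its paralogue GLK2 did not pass (-0.03, limma adjusted p = 0.81). GUN1, a chloroplast protein of signalling to the nucleus, was at 61.4, 55.9, 59.3 and 64.7 RPKM in amiRNACWIN24, against 39.6, 32.4, 36.8 and 41.2 RPKM in WT (log2 0.68; 0.20 with the length trend removed). GNC, a GATA factor of chloroplast development, rose (0.49), and HY5, a light-signalling factor, fell to 5.36 RPKM in amiRNACWIN24, against 7.20 RPKM in WT (log2 -0.39), and did not pass with the length trend removed (-0.18).

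Clock genes, which set the daily phase of antenna transcripts, differed between the genotypes. Of 12 clock genes 8 rose and 4 fell, and 6 rose and 4 fell with the length trend removed. The morning genes CCA1 and LHY fell (log2 -0.55 and -0.82), and the evening genes TOC1 and GI and the afternoon gene PRR5 rose (1.26, 1.16 and 1.71). TOC1 was at 34.5, 28.8, 32.7 and 27.1 RPKM in amiRNACWIN24, against 13.0, 11.4, 12.9 and 12.7 RPKM in WT, without overlap. As no time of collection is given, time of day and genotype cannot be told apart for these genes, and their part in the photosynthesis results was not tested.

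**Figure D5:**
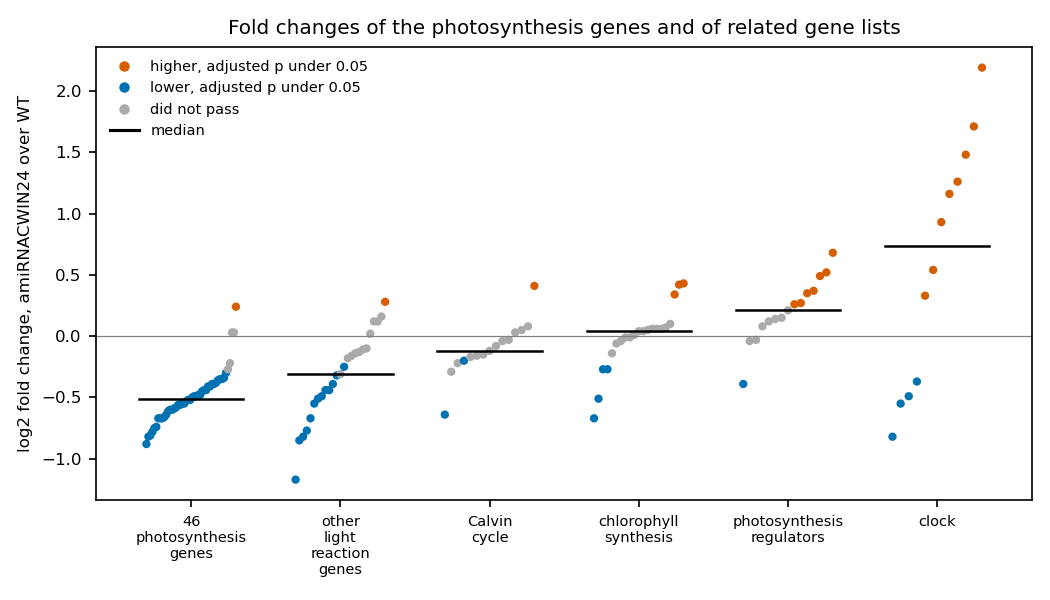
Log2 fold changes (amiRNACWIN24 over WT) of the 46 genes and of 5 related lists, 1 point per gene, in order of value (orange higher and blue lower at a limma adjusted p under 0.05, grey not passed), with a bar at each median. The medians are -0.51 for the 46 genes (-0.12 under quantile normalization), -0.31 for other light reaction genes, -0.12 for the Calvin cycle, 0.04 for chlorophyll synthesis, 0.21 for regulators and 0.74 for the clock.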

How the data were processed

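Total RNA of pooled floral buds was treated with DNase and sequenced on Illumina instruments as paired ends of 125 bp, at a stated average of 30 M reads, per the labels' protocols. Per the submitters' processing notes, TAIR10 was used. For the aligner, counter, strand setting and annotation, the sources used here say nothing. The authors deposited RPKM values for 33977 genes in 8 libraries, and a comparison table of their own with log2 fold changes, p-values and a signed fold score, of which the log2 values and false discovery rates are cited.

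Low RPKM values came out as whole reads within 0.05 for over 99.6% of values in each library, which gave the depths. The 19082 genes that averaged 1 RPKM or more were compared as log2(RPKM + 0.5), a scale that understates the change of low genes, with limma 3.58.1 in R 4.3.3 (two-sided, eBayes with a trend and no term besides genotype, Benjamini-Hochberg over all genes tested). The length trend was removed in each library with a natural spline of 4 degrees of freedom on log2 exon length, over 18994 genes. Alternatives were other pseudocounts and filters, scalings, weights, voom on recovered reads, GC content, a replicate block, a minimum of 1.5-fold, overlapping genes left out and libraries left out. Exon lengths and upstream windows came from RefSeq TAIR10.1, where 32532 genes had the coordinates of the table. On data simulated for this comparison (18966 genes) the procedure recovered 95 of 97 genes changed by log2 1 and 55 of 103 changed by log2 0.585, with 7 false calls. The simulation had the same dispersion for all genes, few changed genes and no trend over exon length. Its false calls therefore do not give the error rate of the real comparison.

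The 46 genes, the related lists, the tests and the naming rule were chosen with earlier results of these data known. The rule named all 46 genes, the 3 genes with the smallest p from each list, GLK1, GLK2, HY5, PSBS, CCA1, LHY, TOC1, CWINV2, CWINV4, STK and overlapping partners. The other floral identity genes were named as the fixed markers of the tissue. AGP11, GRP16, LHCB1.5, LHCB4.3, LHCB7, PORB, PORC and the ATP synthase genes were named after their values were seen. Plots and other values used Python 3.11.15, pandas 2.3.3, numpy 2.4.6, Biopython 1.88 and matplotlib 3.10.9.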

Additional observations from a re-analysis of the deposited data

Results flagged for a closer look

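In 5 of 168 groups of 4 libraries examined, the highest or lowest library stood far from the other 3 by Dixon's test, where about 8 would be flagged by chance at 1 in 20. LHCB2.1 was at 629 RPKM in amiRNACWIN24 replicate 4, and the other amiRNACWIN24 libraries were at 546 to 549 RPKM. RBCS3B was at 2425 RPKM in the same library, and the other amiRNACWIN24 libraries were at 2006 to 2048 RPKM. That library was also the highest of its group for 44 of the 46 genes. GUN4 was at 52.3 RPKM in WT replicate 1, against 78.9 to 80.6 RPKM in the other WT libraries, and PSBS at 338 RPKM there, against 405 to 413 RPKM. CWINV2 was at 2.75 RPKM in WT replicate 1, and at 0.0161 to 0.0317 RPKM in the other WT libraries.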

How the results depend on the processing

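Pseudocounts of 0.1 and 1, filters, array weights, voom and the absence of a trend left the number of the 46 genes that fell at 35 to 42 and their median at -0.53 to -0.50. Leaving out 1 library at a time gave 38 to 42 that fell and 0 to 1 that rose, medians of -0.55 to -0.48, 1 to 5 Calvin cycle genes that fell, 2 to 4 chlorophyll genes that fell, 1 to 2 other light reaction genes that rose, RCA at -0.03 to 0.06, GLK2 at -0.12 to 0.02 and the PSBQ1/PSBQ2 difference at -0.08 to 0.00. Lost calls are named beside some genes only. With the length trend removed, calls were lost for LHCB1.3, PSAD2, PSAE2, PSAF, PSAG, PSAH2, PSAL, PSAN and PSAO. The same held for PSBO2, PSBQ1, PSBQ2, PSBR, PSBY, PETC, FD2, RBCS1A and RBCS3B, which like these fell as deposited.

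Quantile normalization gave 3 of the 46 higher and 21 lower (median -0.12), with LHCB1.3 and RBCS1A at 0.00 (set by their ranks), LHCA2, PSAL and PETC at 0.01, PSBO1 at 0.12, RBCS2B at 0.14, RPE at 0.08 and PSBS at 0.22. It gave 5 other light reaction genes higher, 6 Calvin cycle genes higher and 1 lower, 8 chlorophyll genes higher and 2 lower, and 2 floral identity genes higher and 1 lower. Median-of-ratios scaling gave 0 of the 46 higher (1 at an unadjusted p under 0.05), 6 Calvin cycle and 4 floral identity genes lower, and FNR1 and RCA at -0.03.

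Removal of the length trend gave 0 of the 46 higher (0 at an unadjusted p under 0.05 by limma) and 23 lower (32 unadjusted), median -0.26, with PSAH2 at 0.02, PETC at 0.01, RBCS2B at 0.18, RCA at -0.14 and TKL1 at -0.02. The pair differences became -0.29 for LHCB2.1/LHCB2.2, -0.18 for PSAD1/PSAD2, -0.29 for PSAE1/PSAE2, -0.06 for FNR1/FNR2, -0.32 for PSAH1/PSAH2, -0.03 for PSBO1/PSBO2, 0.14 for PSBQ1/PSBQ2 and 0.10 for PETE1/PETE2. It gave 2 other light reaction genes higher and 5 lower, 0 Calvin cycle genes and 1 chlorophyll gene higher, 4 regulators higher and 0 lower, and 2877 of all genes higher. With GC content as well, 0 of the 46 were higher (1 unadjusted), the median was -0.27, RBCS2B was at 0.15, RCA at -0.16 and TKL1 at -0.04, with 2 other light reaction genes higher and 6 lower, 0 Calvin cycle genes and 1 chlorophyll gene higher, 4 regulators higher and 0 lower, 1 floral identity gene lower, and 2875 of all genes higher. The reason these values moved beyond the trend itself was not tested.

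Deviations of same-numbered libraries from their group means had correlations of -0.27, 0.14, -0.32 and 0.53 for replicates 1 to 4. The sample labels give only a replicate number. With 4 libraries per group these correlations can neither show nor exclude a pairing of the samples. A replicate block gave 32 of the 46 lower and 0 higher (1 unadjusted) and 1 Calvin cycle gene lower. The replicate block with the length trend removed gave 17 lower and 0 higher (median -0.26), PSAH2 at 0.02, PETC at 0.01, RBCS2B at 0.18, RCA at -0.14, TKL1 at -0.02, 6 other light reaction genes lower, 0 Calvin cycle genes higher and 1 lower, 1 chlorophyll gene higher, 3 regulators higher and 0 lower, and 2579 of all genes higher and 2360 lower.

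A minimum of 1.5-fold gave 16 of the 46 lower and 0 higher (1 unadjusted), 0 other light reaction genes higher and 5 lower, 0 higher and 1 lower each for the Calvin cycle, chlorophyll and floral identity lists, 1 regulator higher and 0 lower, 1 clock gene lower, and 2121 of all genes higher and 1664 lower. With overlapping genes left out, 27 of 30 fell, 0 other light reaction genes rose, 1 chlorophyll gene rose and 1 fell, 5 clock genes rose, 1 floral identity gene fell, and 2635 of all genes fell. Array weights gave 2 other light reaction genes and 1 late pollen gene higher and 4 Calvin cycle genes lower, and voom 4 Calvin cycle genes lower. Without WT replicates 1 and 2, 41 of the 46 and 3867 of all genes fell, 2 other light reaction genes rose, 1 Calvin cycle gene fell and GLK2 was at 0.02. The edgeR and DESeq2 fits planned on recovered reads were not run, since RPKM is no count unit.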
